A study of Brassica napus with 24 samples.

Results

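Leaves of control plants of oilseed rape (Brassica napus cv. Trezzor) that were kept well watered were compared between 5 d and 11 d of a water deficit experiment. The 6 libraries described here, 3 at 5 d (labelled control_t1_50) and 3 at 11 d (control_t1_25), were chosen by their labels from the 24 libraries of the series. In that experiment plants grown for 30 days either stayed at 80% of field capacity (FC, control) or had their watering stopped (water deficit, WD). By the study's methods the soil of WD plants reached 25% FC at 11 d. The labels give the 5 d groups 50% FC, which is not the level that those methods give for WD soil at 5 d. The control plants of both harvests shared the cultivar, the greenhouse and the watering. Only leaves that had formed after day 0 were sampled. Each replicate was a pool of 2 plants. The day 11 d comes from the study's methods, which give it for soil at 25% FC, whereas the labels give both groups the same harvest date, 10 July. Control plants harvested at 18 d (control_t2_50, day taken from the harvest date) and at 20 d (control_t2_25), and WD plants at 5 d and 11 d, with 3 libraries each, are used below to place the 6 libraries. The 20 d controls and the WD plants of 5 d, 11 d and 20 d also entered the main fit. They share in its estimate of the spread, on which the calls depend. WD plants of 18 d appear in some comparisons below.

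A young leaf of a rosette plant first imports sugars, amino acids and minerals, expands by loosening its cell walls, and builds up its photosynthetic machinery. Later it becomes a source, and at the end of its life senescence regulators, among them many NAC and WRKY transcription factors, accompany the breakdown of protein and chlorophyll and the export of nitrogen, phosphate, iron and zinc. Defence proteins, receptor-like kinases and glutathione S-transferases are also known to become more abundant in older leaves. In bulk leaf RNA a change in the share of leaves or cells of a given age and a change within cells cannot be told apart.

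Libraries held between 13263953 and 22242737 read pairs on genes at 5 d and between 13564707 and 16318258 at 11 d. Of the 101040 genes in the files, 54274 were tested. Normalized counts are counts divided by the effective library size and multiplied by the mean effective size of the 18 libraries fitted together (5 d, 11 d and 20 d, control and WD). Values of single libraries are always given in the order of replicates 1, 2 and 3. The numbers themselves carry no order. Deviations of same-numbered libraries of the pair of harvests from their group means correlated at -0.14, 0.22 and -0.12, which cannot settle whether the numbers pair them. The files name genes only by ID. Protein domains or symbols were available for 1815 genes, all of them from lists of genes that the study had selected as responding to WD in libraries that include these 11 d controls. The list with the domains was read only in part (1999 genes). Totals of the domain groups below therefore count the members in that part, not all members of a family or of the list. Of these 1815 genes 773 were called higher at 11 d than at 5 d (42.6%) and 65 lower (3.58%), against 7.62% and 3.02% of all tested genes, so that the gene groups below, all drawn from them, are to be read against these shares and not only against those of all tested genes. Counts within such gene groups are therefore not independent evidence of direction. Genes without an annotation in the part read are shown by ID only, whether or not the study's full list holds them.

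The 3 well-watered libraries at 11 d differed widely from one another. Distance between libraries was taken as the root mean square difference of log2(normalized count + 1) over all tested genes. The 5 d libraries lay between 0.520 and 0.732 from one another. Replicate 1 of 11 d lay between 0.710 and 0.745 from the 5 d libraries, a range that overlapped theirs. Replicate 2 lay between 1.13 and 1.15 from them, and replicate 3 between 1.54 and 1.68. From the 20 d controls replicate 1 lay farthest, with mean distances of 1.26 for replicate 1, 0.861 for replicate 2 and 0.885 for replicate 3. Among themselves the 11 d libraries lay between 0.919 (replicates 2 and 3) and 1.52 (replicates 1 and 3) apart. The mean distance between 5 d and 11 d exceeded that within the groups by 0.262, with a one-sided exact permutation p of 0.1, the smallest that 3 libraries against 3 can give.

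Each library was also placed on a straight line that starts at the average 5 d control (position 0) and leads to the mean of the 20 d controls (position 1). Positions of the 11 d controls were 0.207, 0.644 and 1.002. The 5 d controls spread from -0.0518 to 0.0810, the 18 d controls from 0.810 to 0.901 and the 20 d controls from 0.906 to 1.080. On this line replicate 3 of 11 d therefore lay among the 20 d controls, replicate 1 lay just beyond the 5 d controls, and replicate 2 stood between. Over all tested genes replicate 3 was not within the 20 d group. It lay between 0.805 and 0.975 from the 20 d controls, which lay between 0.602 and 0.688 from one another. WD plants at 11 d, from other plants of the same harvest, spread from 0.153 to 0.346, so that only replicate 1 of the 11 d controls fell within their range. Depth and composition moved with the position in part. The 20 genes with the most counts took 8.04%, 5.59% and 5.22% of counts at 11 d and between 8.02% and 9.23% at 5 d. Genes with at least 1 count numbered 61265, 63563 and 63076 at 11 d and from 60421 to 62930 at 5 d. The part of depth and composition in the positions was not tested.

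**Figure D1:**
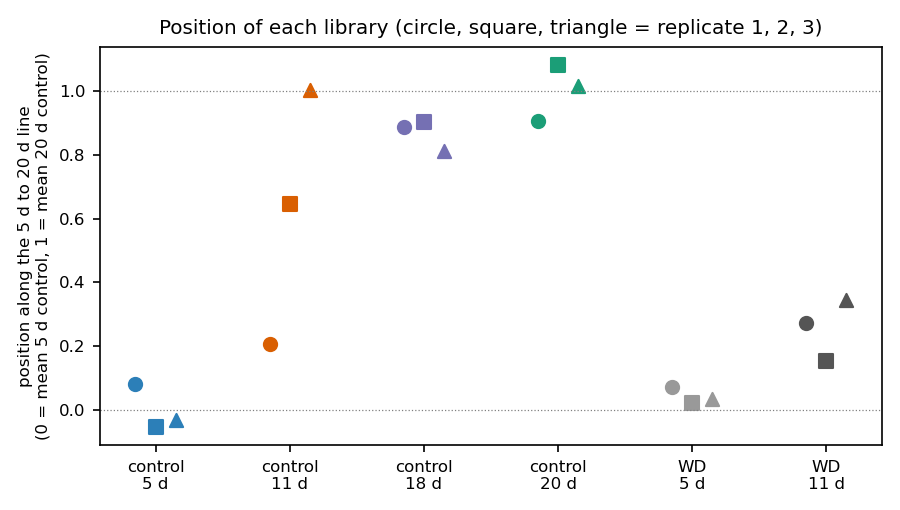
Position of the 18 libraries of the 4 control groups and of WD plants at 5 d and 11 d (one point each, marker shape = replicate) on the line from the mean 5 d control (0) to the mean 20 d control (1), in units of that line. The 3 controls of 11 d stand at 0.207, 0.644 and 1.002, while WD plants at 11 d, the next widest of the 6 groups placed, run from 0.153 to 0.346.

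Counting genes gave the same picture. Among the 50370 genes that averaged 10 or more normalized counts over the 6 libraries, 622, 2451 and 3926 were at least 4-fold above the mean of the 5 d controls in replicates 1, 2 and 3 of 11 d. At least 4-fold below were 108, 154 and 1775. A 5 d library set against the mean of the other 5 d libraries gave between 125 and 322 genes above and between 105 and 373 below. Libraries of 20 d gave between 3104 and 3734 above and between 758 and 2018 below. Genes whose level was far higher than at 5 d were thus many in replicates 2 and 3, whereas genes far lower were many in replicate 3 only among the 11 d controls.

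**Figure D2:**
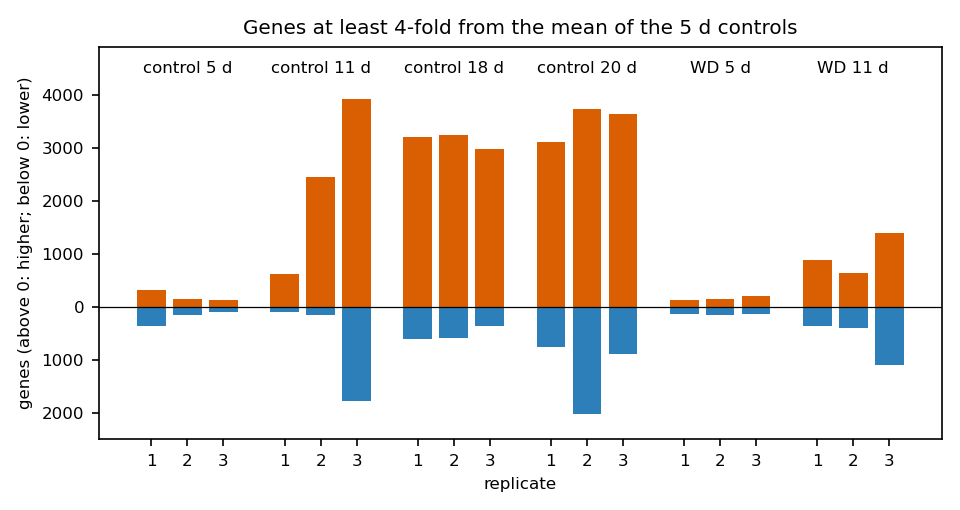
Number of genes at least 4-fold above (orange, upward) or below (blue, downward) the mean of the 5 d controls in each library. A 5 d control is compared with the mean of the other 5 d controls, and the 11 d controls run from 622 to 3926 genes above.

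Tested together with the shared spread of 18 libraries, 4134 genes were higher (7.62% of the genes tested) and 1641 lower (3.02%) at 11 d than at 5 d, or 10.6% in all (edgeR quasi-likelihood test, adjusted p of at most 0.05). Rises were larger than falls, with a median log2 fold change of 2.41 for the former and -0.84 for the latter. Of the 5775 genes called, 4078 did not overlap between the 3 libraries of 5 d and the 3 of 11 d, or 70.6%, against 23.2% of all tested genes. Nearly all of the genes that fell were separated in this way (1571 of 1641), but of the genes that rose only 2507 of 4134, the remainder overlapping in at least 1 library. The median over all tested genes was 0.01.

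How many genes were called depended on which libraries entered the fit. Without replicate 3 of 11 d, 599 genes were higher and 67 lower. Without replicate 2 there were 1897 and 306, and without replicate 1 there were 7643 and 3765. Leaving out a 5 d library gave 3919 and 986 genes without replicate 1, 13 and 1 without replicate 2, and 10 and 0 without replicate 3. Without replicate 2 of 5 d, 3964 genes still had an adjusted p of at most 0.1, whereas without replicate 3 only 79 did. In a fit of the 6 libraries alone with the replicate number as a block no gene was called, although 7784 of 49485 genes had an unadjusted p under 0.05, and without the block 2 genes were called, both higher. The 9 control libraries of 5 d, 11 d and 20 d gave 0 genes with 11393 at an unadjusted p under 0.05, and the 12 control libraries gave 233 and 39. The calls below therefore rest on the spread that the 18 libraries share. The median SD of a gene among the 3 libraries, on the log2(normalized count + 1) scale, was 0.36 among the 11 d controls and 0.24 among those of 5 d, with 0.23 for the 20 d controls.

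**Figure D3:**
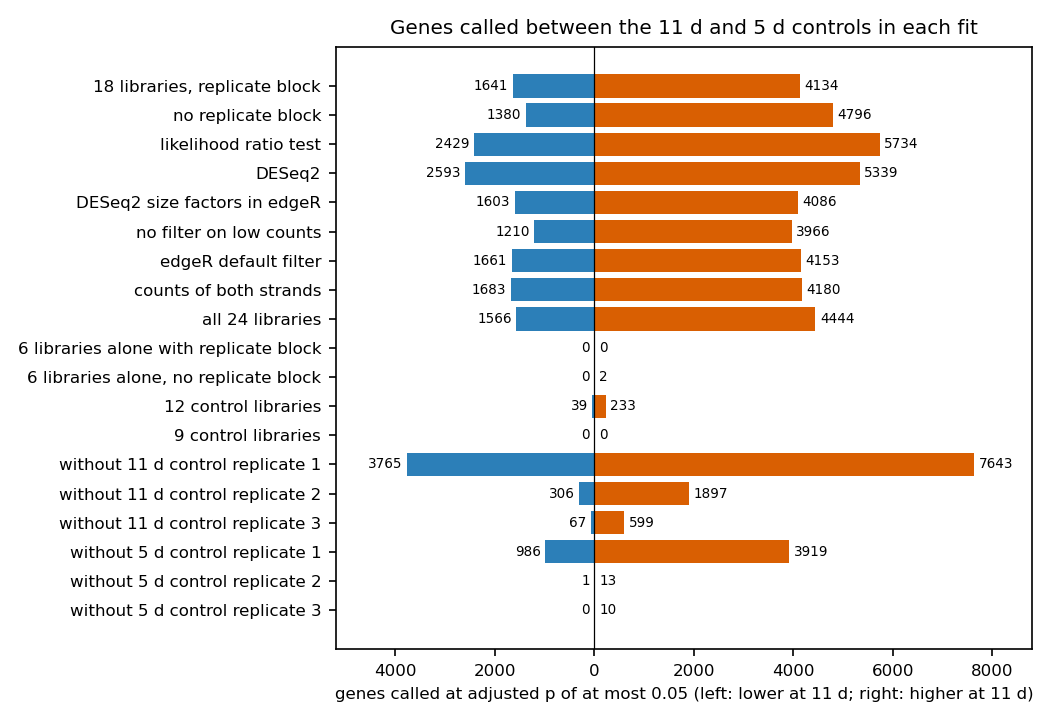
Number of genes called higher (right) and lower (left) at 11 d than at 5 d in each fit, at an adjusted p of at most 0.05. The fit used throughout gives 4134 and 1641, fits of controls alone give at most 233 and 39, and the fit without replicate 1 of 11 d gives 7643 and 3765.

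Of the 5775 genes, 8 kept their call whichever of the 6 libraries was left out, and all of these rose. BnaC03g26780D, with a DUF1645 domain of unknown function, had 2.63, 1.31 and 0.76 in the 5 d libraries and 65.9, 99.3 and 230.2 in those of 11 d, on average at least 38.9-fold higher than 3 counts per library at 5 d. BnaC09g03150D, a protein with a RING-type zinc finger, had 57.9, 43.3 and 38.2 in the 5 d libraries and 298, 223 and 331 in those of 11 d (log2 fold change 2.61 ± 0.26 (SE), adjusted p = 0.0026). In both, replicate 1 of 11 d lay well above the 5 d range. BnaC09g11480D, which carries no annotation here, had 26.3, 18.4 and 17.6 in the 5 d libraries and 165, 203 and 353 in those of 11 d (log2 fold change 3.51 ± 0.39 (SE), adjusted p = 0.0028). BnaCnng67070D, also without annotation, had 128, 63 and 55 in the 5 d libraries and 661, 475 and 360.4 in those of 11 d, the highest 11 d value being that of replicate 1 (log2 fold change 2.64 ± 0.28 (SE), adjusted p = 0.0026).

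The 10 steepest rises among genes whose libraries did not overlap went from a 5 d mean of at most 3.39 normalized counts to between 54.4 and 2638 in replicate 2 and between 201 and 7459 in replicate 3. BnaC05g02440D had 0 in every 5 d library and 1.27, 2638 and 6822 in those of 11 d, on average at least 929.8-fold higher at 11 d than 3 counts per library at 5 d. Its neighbour by number, BnaC05g02450D, had 0 in every 5 d library and 1.27, 541 and 1847 in those of 11 d. Neither has an annotation here. The group means thus rest on 2 of the 3 libraries, since replicate 1 held at most a few counts. BnaC03g30880D, also without annotation, reached 7459 in replicate 3 from 1.32, 6.56 and 2.29 in the 5 d libraries and 8.87, 2168 and 7459 in those of 11 d (log2 fold change 9.57 ± 1.63 (SE), adjusted p = 0.0099). At 20 d the controls had a mean of 583, and BnaC05g02440D a mean of 495, so that for these genes replicates 2 and 3 of 11 d stood above the 20 d mean. Without replicate 3 of 11 d BnaC05g02440D had an adjusted p of 0.072, without replicate 2 of 5 d one of 0.063 and without replicate 3 of 5 d one of 0.11. Among annotated genes whose libraries did not overlap, the steepest rise by fitted fold change was that of BnaA02g31430D, a calmodulin binding protein-like gene, with 0 in every 5 d library and 1.27, 54.4 and 203 in those of 11 d, on average at least 25.4-fold higher.

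Phosphate transport genes rose in replicates 2 and 3 of 11 d, with the reservation that the study chose them in part on these libraries. The 10 members of the PHO1 family, whose founding member in Arabidopsis loads phosphate into the xylem, included 7 genes higher at 11 d and none lower, where 7.62% of all tested genes and 42.6% of the annotated genes were higher. BnaC05g10330D (PHO1;H3) had 2.63, 1.31 and 0.76 in the 5 d libraries and 19, 570.0 and 1407 in those of 11 d, on average at least 196-fold higher at 11 d. BnaA06g38130D (PHO1;H3) had 11.8, 2.63 and 3.82 in the 5 d libraries and 11.4, 1517 and 4937 in those of 11 d (log2 fold change 8.30 ± 1.5 (SE), adjusted p = 0.01), with replicate 1 inside the range of 5 d. All 5 genes of the plasma membrane phosphate importer PHT1-4 were called higher, yet in none of them were the groups separated. BnaA04g22280D (PHT1-4) had 1.32, 0 and 0 in the 5 d libraries and 1.27, 53.3 and 167 in those of 11 d. The mitochondrial phosphate carrier gene BnaA06g19110D (MPT2) had 0 in every 5 d library and 0, 215 and 492 in those of 11 d, on average at least 69.5-fold higher, whereas BnaC09g43140D (MPT3) had 921, 698 and 645 in the 5 d libraries and 579, 638 and 858 in those of 11 d and did not pass the test (log2 fold change -0.11 ± 0.30 (SE), adjusted p = 0.85). Leaving out replicate 3 of 11 d left 3 PHO1 and 1 PHT1-4 genes called, and without replicate 2 or without replicate 3 of 5 d none was.

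Of 13 transporters of nitrate, ammonium and urea, 5 were called higher and none lower. This share, 38.5%, lay below that of the annotated genes (42.6%) and above that of all tested genes (7.62%). BnaC03g56990D (NRT2.5), a high-affinity nitrate transporter, had 13.2, 3.94 and 5.35 in the 5 d libraries and 12.7, 175 and 733 in those of 11 d (log2 fold change 5.12 ± 1.05 (SE), adjusted p = 0.013). BnaC08g08610D (AMT1-1), an ammonium transporter, had 0, 0 and 0.76 in the 5 d libraries and 0, 42.9 and 144 in those of 11 d, at least 18.4-fold higher on average. For both genes replicate 1 lay within the 5 d range. The glutamine synthetases, which fix ammonium into glutamine, included 2 called genes of 3. BnaC02g06690D of this enzyme had 1809.5, 1129 and 1277 in the 5 d libraries and 2139, 4339 and 10149 in those of 11 d, higher in every 11 d library than in any 5 d library (log2 fold change 1.96 ± 0.47 (SE), adjusted p = 0.021). None of these transporters or synthetases was called without replicate 2 or without replicate 3 of 5 d, and none without replicate 3 of 11 d.

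Among 31 transporters of iron, zinc and manganese, 13 were called higher and none lower. Their share of 41.9% was close to the 42.6% of all annotated genes. BnaC07g38730D (YSL1), a carrier of metal chelates with nicotianamine, had 5.26, 7.88 and 6.87 in the 5 d libraries and 5.07, 449.7 and 2553 in those of 11 d (log2 fold change 6.85 ± 1.38 (SE), adjusted p = 0.012). BnaA03g04470D (ZIF1), which moves nicotianamine into the vacuole, had 10.5, 3.94 and 5.35 in the 5 d libraries and 3.8, 1165 and 2507 in those of 11 d (log2 fold change 7.25 ± 1.5 (SE), adjusted p = 0.013). These rises were carried by replicates 2 and 3. Of 6 genes of nicotianamine synthesis and ferritin 2 were called higher, both of them ferritins, the plastid proteins that store iron. BnaC03g00160D (ferritin) had 614, 2831 and 927 in the 5 d libraries and 6985, 13243 and 28128 in those of 11 d (log2 fold change 3.58 ± 0.61 (SE), adjusted p = 0.0099), and BnaA03g00260D (ferritin) had 1424, 5682 and 3330.4 in the 5 d libraries and 9462, 21821 and 44649 in those of 11 d (log2 fold change 2.92 ± 0.60 (SE), adjusted p = 0.013). In both the lowest 11 d library was above the highest 5 d library. Of the 31 transporters, 1 was called without replicate 3 of 11 d, and none without replicate 2 or without replicate 3 of 5 d. BnaC03g00160D kept its call in each of these fits except that without replicate 3 of 5 d (adjusted p = 0.11).

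Transporters of other elements were called higher in smaller shares than the annotated genes as a whole (42.6%). The share of annotated genes called lower was 3.58%. None of 6 sulfate transporters was called in either direction, with BnaC02g08870D (SULTR3;5) at 18.4, 21 and 42 in the 5 d libraries and 45.6, 52.3 and 78.8 in those of 11 d (log2 fold change 1.12 ± 0.35 (SE), adjusted p = 0.057), separated but not called. Of 4 boron transporters 1 was lower at 11 d: BnaA04g26910D (BOR1), the borate exporter, had 372, 309.9 and 119 in the 5 d libraries and 105, 145 and 103 in those of 11 d (log2 fold change -1.12 ± 0.33 (SE), adjusted p = 0.044). Its libraries overlapped between the harvests, and the call was lost whichever of the 6 libraries was left out. Calcium and magnesium transporters counted 6 higher of 21 (28.6%). In this group the calcium uniporter gene BnaCnng26490D (CMCU) was highest in replicate 1 of 11 d. It had 31.6, 6.56 and 14.5 in the 5 d libraries and 200.2, 97.3 and 53.5 in those of 11 d (log2 fold change 2.76 ± 0.57 (SE), adjusted p = 0.013). Potassium and sodium transporters counted 2 higher of 11 (18.2%), both of them the cyclic nucleotide-gated channel CNGC3, of which BnaC04g01250D had 71, 36.8 and 36.7 in the 5 d libraries and 30.4, 940.2 and 2333 in those of 11 d (log2 fold change 4.43 ± 0.96 (SE), adjusted p = 0.015). Over all 114 transporters 44 were called higher (38.6%, against 42.6% of the annotated genes) and 1 lower, and 7 were called higher without replicate 3 of 11 d and none without replicate 2 or without replicate 3 of 5 d.

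Transcription factors of the WRKY family, which bind W-box motifs in genes of defence and senescence, rose in 24 of 28 annotated members (85.7%, against 42.6% of all annotated and 7.62% of all tested genes) and fell in none. BnaA05g01410D had 5.26, 2.63 and 5.35 in the 5 d libraries and 21.5, 127 and 209 in those of 11 d (log2 fold change 4.64 ± 0.68 (SE), adjusted p = 0.0073), and BnaA05g34850D had 9.21, 5.25 and 0.76 in the 5 d libraries and 44.3, 414 and 1066 in those of 11 d (log2 fold change 6.51 ± 1.07 (SE), adjusted p = 0.0098). The levels of these WRKY genes were separated between harvests and lowest in replicate 1 among the 11 d libraries. NAC factors, named after the NAM domain, rose in 15 of 22 (68.2%). BnaC03g50570D (NAC) had 27.6, 27.6 and 42.8 in the 5 d libraries and 93.8, 339.9 and 719 in those of 11 d (log2 fold change 3.37 ± 0.47 (SE), adjusted p = 0.0065). BnaC09g09210D (NAC) had 53.9, 26.3 and 22.1 in the 5 d libraries and 101, 465 and 1065 in those of 11 d (log2 fold change 3.98 ± 0.70 (SE), adjusted p = 0.0099). The fit that left out replicate 3 of 11 d called 11 WRKY and 10 NAC genes, and none was without replicate 2 or without replicate 3 of 5 d.

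AP2/ERF factors, many of which act in ethylene and drought responses, rose in 13 of 22 (59.1%, against 42.6% of all annotated and 7.62% of all tested genes). Their median difference from the 5 d mean on the log2(normalized count + 1) scale was 1.22, 2.19 and 1.06 in the 3 libraries, compared with 1.19, 3.93 and 5.39 for WRKY genes. BnaA09g18210D (AP2/ERF) had 11.8, 2.63 and 3.82 in the 5 d libraries and 92.5, 94.1 and 186 in those of 11 d (log2 fold change 4.38 ± 0.55 (SE), adjusted p = 0.0046). BnaC09g27360D (AP2/ERF) had 210.4, 65.7 and 75.6 in the 5 d libraries and 916, 592 and 276 in those of 11 d (log2 fold change 2.38 ± 0.36 (SE), adjusted p = 0.0078), the largest value being that of replicate 1. Heat shock factors, the activators of chaperone genes, rose in 5 of 6. BnaC03g52080D (heat shock factor) had 25, 15.8 and 14.5 in the 5 d libraries and 198, 102 and 96.9 in those of 11 d (log2 fold change 2.85 ± 0.44 (SE), adjusted p = 0.0083). Of 13 genes with an Hsp20 domain, small chaperones, 1 was called higher, and of 6 genes of the Hsp70 chaperones 2 were. Calls numbered 7 for AP2/ERF and 4 for heat shock factor genes without replicate 3 of 11 d, and none was without replicate 2 or without replicate 3 of 5 d.

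Receptor-like and other protein kinases formed the largest group, in which 137 of 199 genes were called higher (68.8%, against 42.6% of all annotated and 7.62% of all tested genes) and 2 lower. All 17 cysteine-rich receptor-like kinases (Gnk2 domain) were called higher, as were 14 of 15 legume lectin kinases, 11 of 14 S-locus kinases, 10 of 12 wall-associated kinases and 20 of 28 leucine-rich repeat kinases. BnaCnng19190D, a legume lectin kinase, had 10.5, 5.25 and 10.7 in the 5 d libraries and 76, 562 and 901 in those of 11 d (log2 fold change 5.62 ± 0.82 (SE), adjusted p = 0.0073). BnaC07g28970D, a leucine-rich repeat kinase, had 6.58, 2.63 and 1.53 in the 5 d libraries and 7.6, 428 and 1324 in those of 11 d (log2 fold change 7.06 ± 1.25 (SE), adjusted p = 0.0099). BnaA02g35860D, another kinase, had 32.9, 9.19 and 13 in the 5 d libraries and 156, 324 and 566 in those of 11 d (log2 fold change 4.23 ± 0.53 (SE), adjusted p = 0.0046), with replicate 1 well above 5 d. Of the 199 kinases 94 had all 11 d libraries above all 5 d libraries, against 34.5% of all annotated and 11.4% of all tested genes. Without replicate 3 of 11 d, 35 kinases were called higher, and without replicate 2 or without replicate 3 of 5 d none was.

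Of 29 genes encoding NB-ARC or disease resistance proteins, the intracellular immune receptors, 17 were called higher (58.6%, against 42.6% of all annotated and 7.62% of all tested genes). BnaA08g11840D (NB-ARC) had 325, 213 and 179 in the 5 d libraries and 539.7, 955 and 2257 in those of 11 d (log2 fold change 2.33 ± 0.41 (SE), adjusted p = 0.01). Thaumatin family proteins, to which antifungal pathogenesis-related proteins belong, rose in 4 of 7 (57.1%). BnaC01g41460D (thaumatin) had 11.8, 10.5 and 12.2 in the 5 d libraries and 15.2, 2925 and 13055 in those of 11 d (log2 fold change 8.43 ± 1.53 (SE), adjusted p = 0.01), and BnaA06g13430D (thaumatin) had 6.58, 1.31 and 6.11 in the 5 d libraries and 1.27, 2378 and 13881 in those of 11 d (log2 fold change 9.63 ± 1.84 (SE), adjusted p = 0.011). Both genes stood high in replicates 2 and 3 and near the level of 5 d in replicate 1. The 20 d controls had a mean of 1921 for BnaC01g41460D, below both replicates. Only 2 NB-ARC genes and 1 thaumatin gene were called without replicate 3 of 11 d, and none was without replicate 2 or without replicate 3 of 5 d.

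Glutathione S-transferases, which conjugate glutathione to reactive or toxic compounds, rose in 8 of 10, where 42.6% of all annotated and 7.62% of all tested genes rose. BnaCnng47740D of this group had 5.26, 15.8 and 11.5 in the 5 d libraries and 16.5, 2466 and 8248 in those of 11 d (log2 fold change 7.98 ± 1.38 (SE), adjusted p = 0.0099). Cytochrome P450 genes, oxidases of secondary and hormone metabolism, counted 16 higher of 29 (55.2%). They counted 2 lower (6.90%, against 3.58% of all annotated genes). Haem peroxidases counted 3 higher of 11 (27.3%), below the share of the annotated genes. BnaC02g35960D (cytochrome P450) had 72.3, 59.1 and 77.1 in the 5 d libraries and 136, 564 and 1681 in those of 11 d (log2 fold change 3.25 ± 0.55 (SE), adjusted p = 0.0099). LEA-14 proteins rose in 9 of 16, and BnaC03g02540D (LEA-14) had 7.89, 3.94 and 0.76 in the 5 d libraries and 46.9, 187 and 617 in those of 11 d (log2 fold change 6.0 ± 0.93 (SE), adjusted p = 0.0083). None of 7 dehydrins, proteins that accumulate in drying tissue, was called, and BnaC05g15780D (dehydrin) had 9780.3, 4535 and 6025 in the 5 d libraries and 8722, 5595 and 3197 in those of 11 d (log2 fold change -0.23 ± 0.39 (SE), adjusted p = 0.74). Without replicate 3 of 11 d, 4 glutathione S-transferase, 4 cytochrome P450 and 2 LEA-14 genes were called higher, and none was without replicate 2 or without replicate 3 of 5 d.

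Genes known for breakdown and export of leaf contents did not share one pattern. Aspartic and papain-like proteases counted 7 higher of 13 (53.8%, against 42.6% of all annotated genes), and BnaA01g20790D, a papain-like cysteine protease, had 10.5, 10.5 and 13 in the 5 d libraries and 22.8, 277 and 809 in those of 11 d (log2 fold change 4.72 ± 0.81 (SE), adjusted p = 0.0099). Sugar transporters counted 11 higher of 15 (73.3%), and BnaC09g03670D of this family had 3.95, 3.94 and 0.76 in the 5 d libraries and 3.8, 333 and 1006 in those of 11 d, on average at least 132-fold higher. Of 8 genes with a senescence-related domain 2 were higher (25.0%), below the share of the annotated genes, with BnaA04g28420D (senescence regulator) at 22.4, 13.1 and 15.3 in the 5 d libraries and 65.9, 176 and 181 in those of 11 d (log2 fold change 3.05 ± 0.46 (SE), adjusted p = 0.0079). The order of the 11 d libraries differed between the called members. BnaCnng02970D (senescence regulator) had 185, 112 and 124 in the 5 d libraries and 656, 375 and 212 in those of 11 d (log2 fold change 1.54 ± 0.39 (SE), adjusted p = 0.026), highest in replicate 1. Proteins with a heavy metal-associated domain counted 6 higher of 14 (42.9%), about the share of the annotated genes. Without replicate 3 of 11 d, 1 protease, 1 sugar transporter, 2 senescence and 3 heavy metal-associated genes were called, and none was without replicate 2 or without replicate 3 of 5 d.

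**Figure D4:**
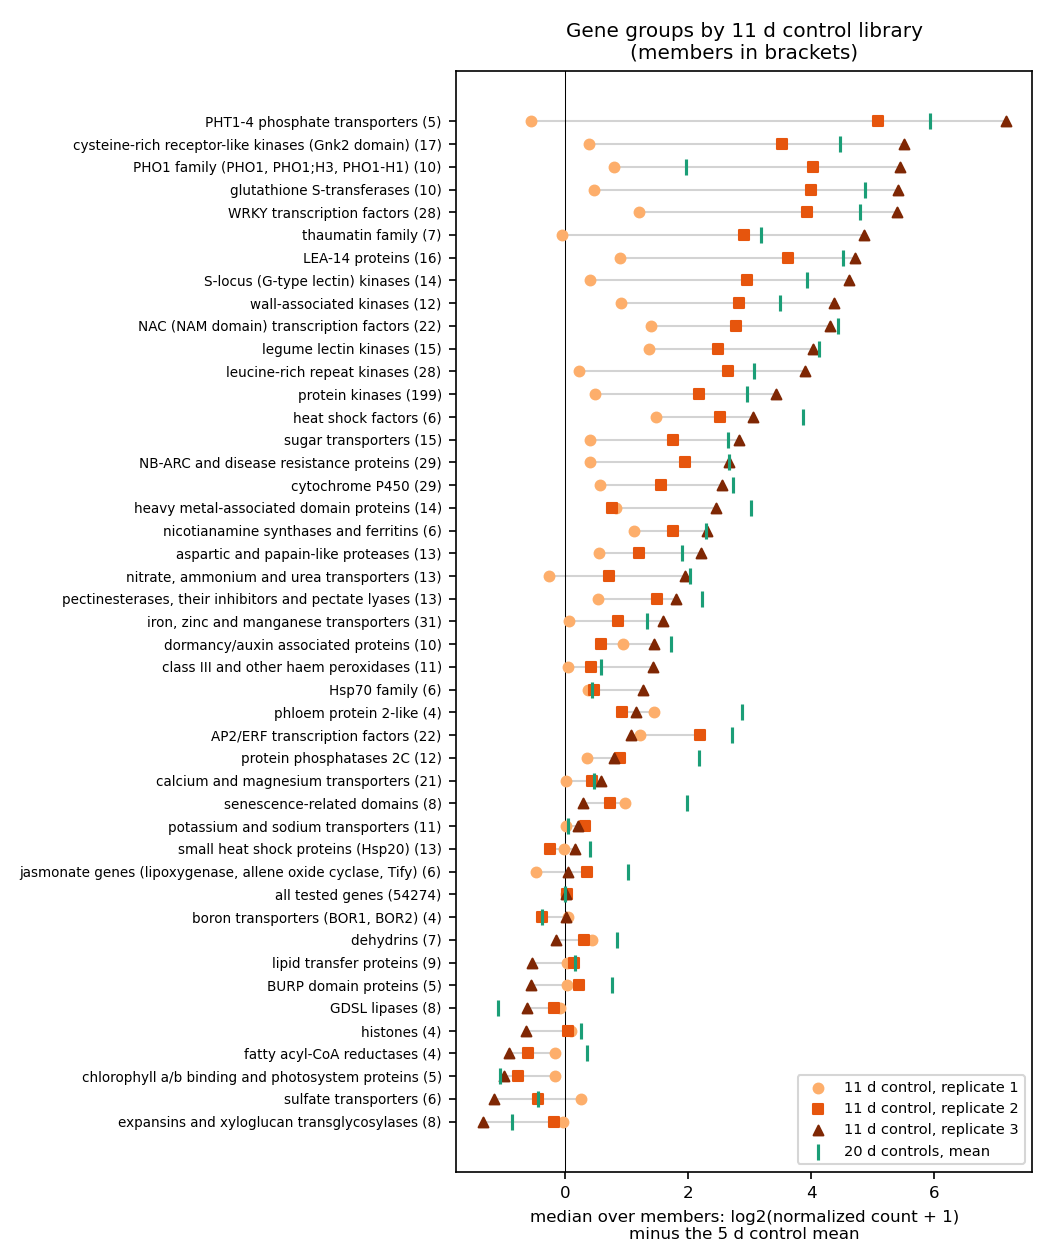
Median over the members of each gene group of the difference of log2(normalized count + 1) from the 5 d control mean, for each 11 d control (circle, square, triangle) and for the mean of the 20 d controls (green tick), with the number of members in brackets. For WRKY genes the points of replicates 1, 2 and 3 are at 1.19, 3.93 and 5.39, and over all tested genes they are at 0.01, 0.02 and 0.02.

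Genes of photosynthesis, cell wall growth and lipids were few in the annotated set and mostly did not pass the test. Of all annotated genes 3.58% were called lower and 42.6% higher, and of all tested genes 3.02% and 7.62%. In groups as small as these 1 gene decides how the share compares. Of 5 chlorophyll a/b binding and photosystem genes 1 was lower at 11 d: BnaC05g04700D (photosystem II PsbW) had 1235, 970.2 and 1113 in the 5 d libraries and 805, 584 and 440.2 in those of 11 d (log2 fold change -0.88 ± 0.20 (SE), adjusted p = 0.018). BnaCnng14300D (chlorophyll a/b binding) had 1174, 985 and 890.5 in the 5 d libraries and 682, 588 and 502 in those of 11 d (log2 fold change -0.78 ± 0.24 (SE), adjusted p = 0.052), separated but not called. Among 8 expansins and xyloglucan transglycosylases, wall-loosening proteins and enzymes, 1 rose and 1 fell. The expansin gene BnaA07g28080D had 910.0, 821 and 1029 in the 5 d libraries and 808, 223 and 199.9 in those of 11 d (log2 fold change -1.45 ± 0.34 (SE), adjusted p = 0.02), and BnaA03g50050D of glycoside hydrolase family 16 had 151, 43.3 and 110.0 in the 5 d libraries and 389, 503 and 1163 in those of 11 d (log2 fold change 2.84 ± 0.66 (SE), adjusted p = 0.018). These genes moved in opposite directions. Pectinesterases, their inhibitors and pectate lyases counted 7 higher (53.8%, against 42.6% of all annotated genes) and 1 lower of 13, among them BnaA04g01780D (pectinesterase) with 7.89, 3.94 and 8.4 in the 5 d libraries and 13.9, 753 and 2559 in those of 11 d (log2 fold change 7.01 ± 1.20 (SE), adjusted p = 0.0099). A single fatty acyl-CoA reductase of 4, enzymes of wax alcohol synthesis, was lower, and no lipid transfer protein of 9 was called. Neither PsbW nor the expansin was called without replicate 3 of 11 d, nor without replicate 2 or without replicate 3 of 5 d.

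**Figure D5:**
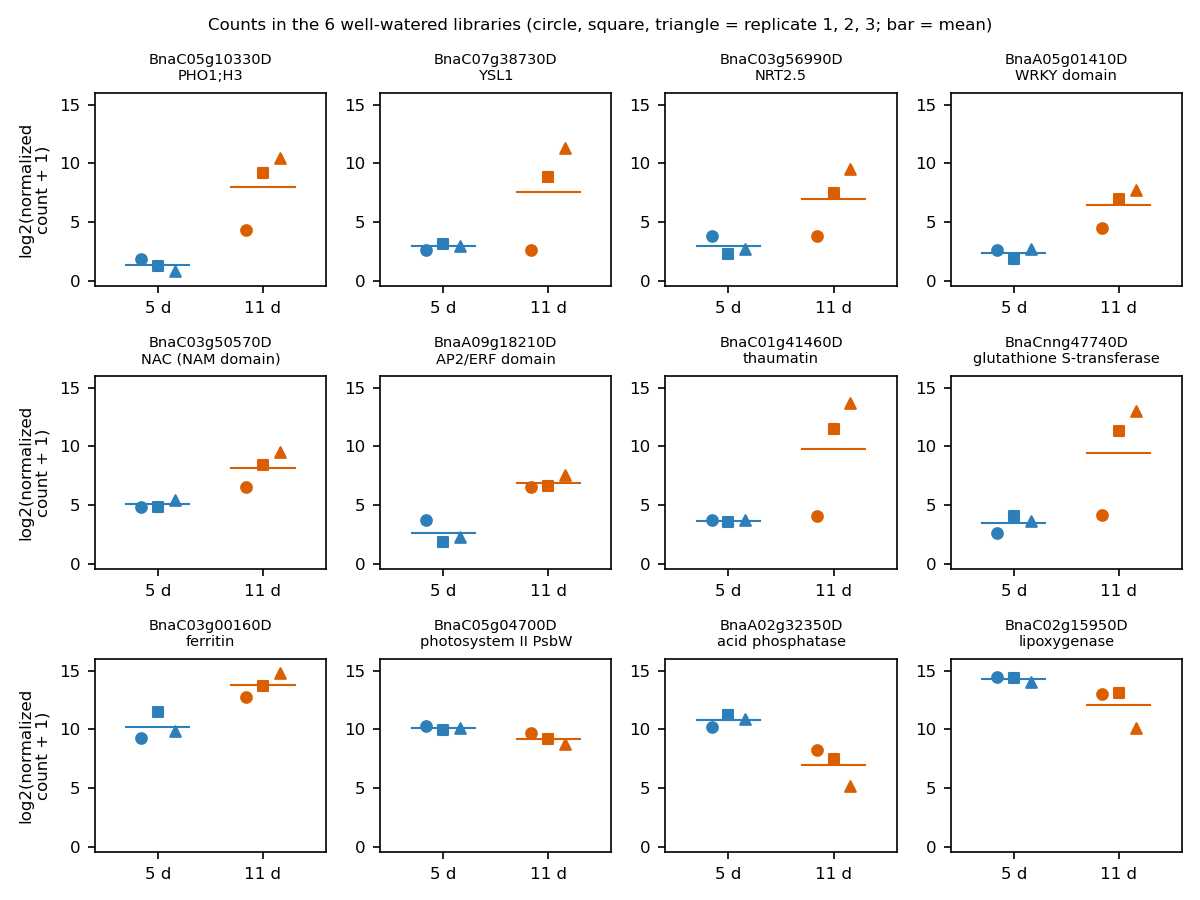
Level of 12 named genes in each of the 6 well-watered libraries as log2(normalized count + 1), with the mean of each group as a bar. In 4 panels of rising genes (YSL1, NRT2.5, thaumatin and glutathione S-transferase) the circle of 11 d (replicate 1) lies near the 5 d points, as for BnaC01g41460D with 15.2 normalized counts in replicate 1 against 13055 in replicate 3.

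The 10 steepest falls among separated genes included 4 annotated ones. BnaA02g32350D, an acid phosphatase of the vegetative storage protein family, had 1151, 2371 and 1913 in the 5 d libraries and 304, 175 and 34.3 in those of 11 d (log2 fold change -3.46 ± 0.65 (SE), adjusted p = 0.01). BnaC07g30000D, a 6-phosphogluconolactonase of the pentose phosphate pathway, had 1939.7, 3829.7 and 2924 in the 5 d libraries and 269, 449.7 and 2.02 in those of 11 d (log2 fold change -3.42 ± 1.01 (SE), adjusted p = 0.046). In both the levels of replicate 1 were already below every 5 d library and those of replicate 3 were lowest. Of 6 jasmonate genes 2 rose and 2 fell (33.3% each), where 42.6% of all annotated genes rose and 3.58% fell. Those that fell were both lipoxygenases, which oxidize fatty acids on the way to jasmonate. BnaC02g15950D (lipoxygenase) had 22063, 21398 and 16367 in the 5 d libraries and 8230.1, 8627 and 1086 in those of 11 d (log2 fold change -1.80 ± 0.52 (SE), adjusted p = 0.042). BnaA07g28090D, a MADS-box transcription factor, had 77.6, 60.4 and 48.1 in the 5 d libraries and 16.5, 15.7 and 6.06 in those of 11 d (log2 fold change -2.30 ± 0.32 (SE), adjusted p = 0.0064). BnaC09g37240D, a germin-like protein of the cupin family, had 196, 268 and 243 in the 5 d libraries and 35.5, 104 and 40.4 in those of 11 d (log2 fold change -2.01 ± 0.45 (SE), adjusted p = 0.016). Without replicate 2 of 5 d 1 gene in all was called lower, and without replicate 3 of 5 d none was.

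The 3 controls of 11 d differed from one another in more genes than the libraries of any other group. A range of at least 4-fold among the 3 libraries was seen in 5484 of the 50370 genes (10.9%), against 1254 (2.49%) at 5 d, 508 at 18 d, 1153 at 20 d and 4317 in the widest WD group, that of 18 d. Between replicates 3 and 1, 3259 genes were at least 4-fold higher and 1885 at least 4-fold lower in replicate 3. In 3214 of the former (98.6%) replicate 2 lay between them, and in 1371 of the latter (72.7%). These genes were chosen for the gap between replicates 1 and 3, which favours a middle place of replicate 2. No share over all genes stands beside these values, so they do not show that replicate 2 was intermediate. The 5 d mean was nearer to replicate 1 than to replicate 3 in 97.6% of the genes higher in replicate 3, against 77.6% of all 50370 genes. The 20 d mean was nearer to replicate 1 in 16.6% of them, against 40.8% of all genes. For genes lower in replicate 3 the 5 d mean was nearer to replicate 1 in 91.5%, the 18 d mean in 79.0% and the 20 d mean in 43.4%. Over all 50370 genes these shares were 77.6%, 51.4% and 40.8%, so that of 20 d was near its background. Many of the low values of replicate 3 were thus not shared by the 18 d controls. Of the genes higher in replicate 3, 2244 were among those called between the harvests, and of those lower in it 89 were, in a comparison that holds the same libraries.

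A gene was taken to set 1 library apart where that library was at least 4-fold from both others while these lay within 2-fold of each other. By this measure 1564 genes set an 11 d control apart, against 449 at 5 d, 429 at 20 d and 150 at 18 d. They were unevenly spread: replicate 1 was lower in 374 genes and higher in 56, replicate 2 lower in 15 and higher in 14, and replicate 3 lower in 1051 and higher in 54. Among the WD groups the count ran from 214 at 5 d to 2152 at 18 d, where 1744 genes were low in replicate 3 alone. Replicate 1 of the 5 d controls also stood somewhat apart, with 204 genes lower and 147 higher.

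Genes low in replicate 1 of 11 d alone stood high in the other pair, at a median of 2.94 above the 5 d mean on the log2(normalized count + 1) scale, while replicate 1 itself stood at -0.14. The 20 d controls stood at 2.26 and the 18 d controls at 1.97 for these genes. In 329 of the 374 the 5 d mean was nearer to replicate 1, but the 20 d mean was so in 61. BnaA01g29140D, a protein kinase, had 125, 122 and 125 in the 5 d libraries and 125, 2056 and 3806 in those of 11 d. BnaC08g39210D (PCR2), a zinc transporter of the plasma membrane, had 6.58, 2.63 and 7.64 in the 5 d libraries and 8.87, 196 and 323 in those of 11 d. The first of these shows the pattern plainly, with replicate 1 at the level of every 5 d library. BnaA05g00710D, a Myb factor, had 1.32, 1.31 and 0 in the 5 d libraries and 0, 48.1 and 70.7 in those of 11 d, and BnaC06g35810D, which carries no annotation here, had 30.2, 39.4 and 13.8 in the 5 d libraries and 11.4, 4894 and 6356 in those of 11 d. The set held 0.743% of the 50370 genes and 2.99% of the annotated ones among them. By gene group it held 10 of 199 protein kinases, 4 of 28 WRKY genes and 4 of 29 NB-ARC genes. It also held 3 of 22 NAC genes and 3 of 14 heavy metal-associated genes. Among other groups it held 2 of 114 transporters and 0 of 29 cytochrome P450, 15 sugar transporter and 10 glutathione S-transferase genes. These totals count all members, also those averaging under 10 normalized counts.

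Among the 56 genes high in replicate 1 alone, the 5 d mean was nearer to replicate 1 in 42. BnaC01g18190D, a GATA-type zinc finger gene, had 356, 167 and 116 in the 5 d libraries and 161, 19.9 and 29.3 in those of 11 d, and BnaA08g03400D, with a thioredoxin-like fold, had 855, 329.5 and 539.9 in the 5 d libraries and 186, 39.7 and 32.3 in those of 11 d. BnaA09g40280D, which carries no annotation here, had 63.1, 64.3 and 64.9 in the 5 d libraries and 50.7, 6.27 and 4.04 in those of 11 d. In all 3 genes the other pair of libraries was lower than every 5 d library. By contrast BnaC09g37560D, a plastocyanin-like copper protein, varied within 5 d as well, with 21, 5.25 and 1.53 in the 5 d libraries and 65.9, 12.6 and 12.1 in those of 11 d.

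The 1051 genes low in replicate 3 alone formed the largest set, and only 28 of them carry an annotation here. Their median in replicate 3 was -2.62 from the 5 d mean, while the other 11 d libraries stood at 0.24, the 18 d controls at -0.28 and the 20 d controls at -1.14. In 49 of the 1051 the 5 d mean was nearer to replicate 3, and in 486 the 20 d mean was. BnaC06g05340D, a glycoside hydrolase of family 1, had 7610.4, 27637 and 17963 in the 5 d libraries and 9626, 13947 and 357 in those of 11 d, and BnaA03g18540D, a mannose-binding lectin, had 5143, 13065 and 7026 in the 5 d libraries and 6329.7, 7873 and 386 in those of 11 d. Both were abundant in each library of 5 d and 11 d but replicate 3 of 11 d. Their 20 d means were 1318 and 1084. BnaA02g15910D, which carries no annotation here, had 387, 21852 and 5911 in the 5 d libraries and 22638, 23621 and 30.3 in those of 11 d, so that it also varied widely within 5 d. Of this set 26 genes were called lower at 11 d and 2 higher.

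Replicate 3 alone was higher in 54 genes, and the 20 d mean was nearer to it than to the others in 41 of them. BnaAnng20820D (pectinesterase) had 137, 60.4 and 68 in the 5 d libraries and 205.2, 286 and 1896 in those of 11 d, and BnaA07g32130D, a gamma thionin, which is a small antimicrobial peptide, had 56.5, 28.9 and 46.6 in the 5 d libraries and 45.6, 45 and 320.1 in those of 11 d. The 20 d means of this pair were 1052 and 1071. Replicate 2 was set apart by few genes. BnaAnng38340D, a plant disease resistance response protein, had 107, 73.5 and 86.3 in the 5 d libraries and 20.3, 219.6 and 14.1 in those of 11 d, and BnaA03g13140D, a lipid transfer protein, had 73.6, 28.9 and 59.6 in the 5 d libraries and 103, 423 and 72.7 in those of 11 d. A replication factor A subunit gene, BnaA01g22550D, was nearly silent in it, with 3.95, 48.6 and 67.2 in the 5 d libraries and 38, 2.09 and 52.5 in those of 11 d.

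The question whether drying plants passed through the same change was addressed with the WD libraries, which share no library with the controls. Between 5 d and 11 d, 278 genes rose and 118 fell in WD plants, or 0.512% and 0.217% of those tested. Of the 4134 genes higher at 11 d in controls, 148 were also called higher in WD plants (3.58%), none was called lower, and 3229 had the same sign (78.1%, against 52.1% of all tested genes with a positive sign). Of the 1641 lower ones 42 were called lower in WD plants (2.56%), none higher, and 1437 had the same sign (87.6%, against 47.9%). In WD plants the median log2 change was 0.44 for the genes that rose in controls and -0.35 for those that fell. The genes were chosen by their change in controls, so the sizes in both kinds of plants cannot be compared without bias. BnaC05g10330D (PHO1;H3) had a mean of 8.07 in WD plants at 11 d, and BnaC01g41460D (thaumatin) one of 6.5. By contrast the heat shock factor gene BnaC03g52080D had a mean of 392 in WD plants at 11 d against 79.3 at 5 d.

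The difference between the 2 changes was tested as an interaction. No gene passed in the edgeR quasi-likelihood test, although 5450 genes (10.0%) had an unadjusted p under 0.05. The likelihood ratio test gave 537 genes with a larger log2 change in controls and 110 with a smaller one, and DESeq2 gave 540 and 131. Without replicate 1 of the 11 d controls the quasi-likelihood test gave 2100 and 401, while none was called when any other library of these 4 groups was left out. Of 13 Hsp20 genes 7 were called higher at 11 d in WD plants and 1 in controls. The unadjusted interaction p was under 0.05 in 9 of them, and in 16 of 28 WRKY genes and 88 of 199 protein kinases. The median interaction was -2.81, 2.88 and 1.68 in these groups, a positive value being a larger log2 change in controls. All these genes come from the study's selection of genes responding to WD, which by itself favours a low interaction p. BnaC02g04180D (Hsp20) had 2.63, 6.56 and 8.4 in the 5 d libraries and 8.87, 12.6 and 14.1 in those of 11 d in controls and means of 16.2 and 353 in WD plants at 5 d and 11 d.

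The later controls show where the 11 d libraries stood in the course of the experiment. Between 20 d and 11 d, 439 genes were higher and 274 lower at 20 d, or 0.809% and 0.505% of genes tested. Between 20 d and 5 d, 9538 were higher and 7454 lower, or 17.6% and 13.7%. The first of these comparisons shares its 11 d libraries, and the second its 5 d libraries, with that of 11 d and 5 d. Without replicate 2 of 11 d, 3 and 17 genes differed between 20 d and 11 d, without replicate 3, 1404 and 1130 did, and without replicate 1, 371 and 581. WRKY genes had a median of 4.79 above 5 d at 20 d beside 5.39 in replicate 3, and NAC genes 4.43 beside 4.31. The PHO1 family had a median of 1.96 at 20 d beside 4.04 in replicate 2 and 5.45 in replicate 3 of 11 d.

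Markers of other cell types could be checked only through the same annotated lists. Guard cell, root and meristem markers had no member in them. The summed level of 4 phloem protein 2-like genes lay between 575 and 1104 in the 5 d libraries and between 1179 and 1430 in those of 11 d. That of 3 chlorophyll a/b binding genes, which mark green mesophyll, lay between 1204 and 1562 in the 5 d libraries and between 942 and 999 in the others. The pattern for seed storage matched 9 genes, all with the lipid transfer protein domain rather than defining markers, and their sum lay between 1580.1 and 2376 in the 5 d libraries and between 849 and 1905 in the 11 d libraries. That for pollen matched 7 genes, among them expansins, with sums between 1931 and 2345 in the former and between 1112 and 2021 in the latter. The part of cell composition in the differences was not tested.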

How the data were processed

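Paired-end, strand-specific poly(A) RNA-seq counts were available for 24 libraries (control and WD leaves at 4 harvests, 3 replicates each, every replicate a pool of 2 plants). Per the labels and the study's methods, the authors trimmed the reads, removed ribosomal RNA, aligned pairs to the B. napus genome with STAR and deposited counts per gene as STAR wrote them. The deposited counts are whole, not normalized, and the column of the reverse strand was used, as fits a kit that keeps strand. Pairs that mapped to several loci (7.77% to 8.48% of pairs in the 6 libraries) are on no gene, so homoeologues and near-identical copies are under-counted.

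Libraries were grouped by their labels. Genes that reached 0.6 CPM in 3 or more of the 18 libraries of 5 d, 11 d and 20 d were kept, scaled by TMM and fitted in edgeR (version 4.0.16, R 4.3.3) with the group and, as in the study's model, the replicate number as an additive block, followed by the quasi-likelihood test with Benjamini-Hochberg adjustment over all tested genes. A gene was called at an adjusted p of at most 0.05. Standard errors (SE) were taken from the F statistic, as the absolute log2 fold change over its root. Where all libraries of a group had at most 3 counts, a bound against 3 counts per library replaced the fold. The replicates are separate pools of plants, and p-values rest on the spread between pools shared over the 18 libraries. They do not rest on the spread of the 5 d and 11 d controls alone. The 11 d controls varied most among the groups fitted, with a median SD of a gene of 0.36, against 0.24 at 5 d. The shared spread can therefore understate that of the 11 d controls. DESeq2 (version 1.42.0) and the likelihood ratio test were alternatives, as were other scalings, filters, sample sets and fits that left out each library. The fit was tested on simulated data with known changes, of which it found a part, fewer of the smaller ones.

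Gene symbols and domains come from tables of the study, matched by ID, of which 1 was read only in part. Named genes are the 10 steepest separated rises and falls, over all and over annotated genes, the 4 with the smallest p in each list, and those that set an 11 d library furthest apart. Genes kept in every fit without 1 library were added after their values were seen. The members and lists were chosen with earlier results of these data known.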

Additional observations from a re-analysis of the deposited data

How the results depend on the processing

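The fit used throughout called 5775 genes between 11 d and 5 d. Other tests, scalings, filters, counts of both strands or all 24 libraries called between 5176 and 8163. Between 5022 and 5770 of the genes in these calls were among the 5775. Dropping the replicate block gave 6176 (4796 higher, 1380 lower), of which 5290 were among the 5775. Same-numbered libraries of the pair of harvests correlated at -0.14, 0.22 and -0.12 in their deviations from their own group mean. With 3 libraries per group such values cannot settle whether the numbers pair them. The count was 0 for the 6 libraries alone with the replicate block, 2 without it, 0 for the 9 controls and 272 for the 12 controls, where the gene lists held 0, 0, 0 and 26 calls instead of 356. Leaving out 1 library gave between 10 and 11408 genes, and between 0 and 428 in the lists. The interaction with WD gave 0 genes, 647 by the likelihood ratio test and 671 by DESeq2, and between 0 and 2501 with 1 library left out. Between 20 d and 11 d the count ran from 20 to 2534 with 1 library left out, against 713. Genes setting an 11 d library apart numbered 1564, 497 at 8-fold, 772 at a minimum mean of 50 and 709 at a pseudocount of 10, which lower it by their own construction. The excess distance ran from 0.111 to 0.656 with 1 library left out and was 0.20 at a pseudocount of 10. No named gene reversed its direction past the threshold. Why the call counts differ so much between fits was not tested. A fit without a library leaves 2 in that group, and the lone pair is assumed to vary like the other groups. Depth limits genes of a few counts, where 1 count decides overlap.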

Other observations

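One stretch of genes varied in a way that did not follow the harvest. In the run of 41 tested genes from BnaC01g39840D to BnaC01g40610D on chromosome C01, whose limits were chosen after the values were seen, replicate 1 of the 5 d controls had at most 1 count in 20 genes and a median of 2.63 normalized counts. The other 5 d controls had at most 1 count in 2 and 1 of them, with medians of 56.5 and 91.6, and the 11 d controls in 2, 0 and 0, with medians of 76.0, 58.6 and 52.5. Among the remaining libraries the same stretch was low in replicate 1 of the 20 d controls (11 genes, median 5.56), replicate 1 of the WD plants at 20 d (17 genes, median 4.05) and replicate 2 of the WD plants at 18 d (14 genes, median 3.39). The median of every other library lay between 28.0 and 89.8. The cause was not tested.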
